A study of Mus musculus with 74 samples.

Results

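Arntl, Clock and Npas2 are the 3 genes that encode the activating arm of the circadian clock. They were taken by symbol from the 55487 genes of the RNA table, and their regions were taken by the gene name that the deposited peak tables assign. This gave 11 of 42572 ATAC peaks in brown adipose tissue (BAT), 6 of 25050 in inguinal white adipose tissue (WAT) and 4 of 10368 BMAL1 peaks. BMAL1 is the protein of Arntl, which is now also named Bmal1.

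All RNA and ATAC samples came from mice of the strain Adiponectin-Cre:NuTRAP, in which Cre under the Adiponectin promoter switches on tagged nuclei and ribosomes in adipocytes. The 6 Zeitgeber times were ZT1, ZT5, ZT9, ZT13, ZT17 and ZT21, in hours from lights on, with 3 libraries per depot, time and assay, except 2 RNA libraries for BAT at ZT17. For BMAL1 ChIP-seq there were 2 libraries at ZT4 from C57BL6J mice, also of inguinal WAT. Diet, feeding, sex and age are not in the labels. Nor do they say that libraries of a group are separate animals, so a p-value measures the spread between libraries alone. Levels of ribosome-bound RNA are counts in CPM (counts scaled to a common library total) scaled by TMM over all 35 libraries. In bulk pulldowns of this kind, fewer cells of a type and less RNA per cell cannot be told apart.

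The adipocyte label was checked on markers. Adipoq, the adiponectin gene, had a level of 159 to 520 CPM in the 17 BAT libraries and 124 to 295 CPM in the 18 WAT libraries. Ucp1, the uncoupling protein of brown fat, had 695 to 2732 CPM in BAT and 4.43 to 159 CPM in WAT. The WAT libraries were shallower, with 1301522 to 6481154 counts against 4980147 to 46274438 in BAT. The share of ribosomal RNA loci lay between 0.813% and 4.64% in BAT libraries but between 5.26% and 66.0% in WAT libraries, of which 3 were above 50% (ZT5 replicate 3, ZT9 replicate 3 and ZT17 replicate 2). Markers of several other cell types had higher medians in WAT, and those of muscle did not (82.7 CPM in both depots). The summed level of 7 fibroblast markers had a median of 19.8 CPM in BAT and 432 CPM in WAT, that of 6 macrophage markers 10.5 and 129 CPM, and that of 8 lymphocyte markers 0.261 and 114 CPM.

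BMAL1 pairs with CLOCK or with its close relative NPAS2 through their bHLH-PAS domains. The pair binds E-boxes and switches on the Period, Cryptochrome, REV-ERB and PAR bZIP genes. PERIOD and CRYPTOCHROME proteins then block the pair, while REV-ERB repressors and ROR activators compete at elements in the Arntl promoter and set the phase of Arntl RNA, which peaks opposite to the E-box targets. In adipose tissue the clock is known to time lipid metabolism and heat production.

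The Arntl promoter is shown because it holds that feedback element. Its 250 bases upstream of the first curated RefSeq start site (GRCm38.p6, chr7:113207215-113207464, plus strand) are given with the CCAAT motif, searched on both strands, in capitals (ATTGG is the same motif on the other strand). The other two stretches, chr7:113207492-113207520 and chr7:113207528-113207556, lies just downstream of that site and shows the REV-ERB and ROR elements AAAGTAGGTNA in capitals.
Arntl upstream: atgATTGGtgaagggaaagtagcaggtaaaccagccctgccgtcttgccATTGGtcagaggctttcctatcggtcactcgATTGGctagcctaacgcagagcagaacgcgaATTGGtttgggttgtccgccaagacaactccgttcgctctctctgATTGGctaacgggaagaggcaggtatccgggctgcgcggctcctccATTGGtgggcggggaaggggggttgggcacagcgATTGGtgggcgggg
Arntl element 1: attggtcggAAAGTAGGTTAgtggtgcga
Arntl element 2: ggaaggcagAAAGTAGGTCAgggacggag

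Motifs were searched on both strands in 300-base windows, from 250 bases before to 50 after each start site, of which RefSeq gave 32544 distinct ones. The element AAAGTAGGTNA occurred in 20 windows (0.0615%), and 1 window, that of the Arntl start site at 113207511, held it at 2 places. The window of the Arntl start site at 113207465 held CCAAT 8 times, a number that 1 of the 32544 windows reached, while 37.4% of windows held it at least 1 time. The letters of these motifs were chosen with the Arntl sequence in view, so the counts are a description. None of the 6 windows of the 3 genes held the E-box CACGTG (in 7.17% of all windows), the related CACGTT (4.71%) or the D-box TTANGTAA (2.29%). AGGTCA, the half-site inside element 2, was in 16.2% of all windows and, besides Arntl, in 1 of 3 Clock windows. The 2 other windows of Clock, one of them at its start site 76304792 (chromosome 5) and of Npas2 at 39194272 (chromosome 1) held none of the 6 motifs.

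Arntl RNA rose and fell strongly over the day in BAT. Arntl (ENSMUSG00000055116, chromosome 7) had levels of 9.63, 11.3 and 6.16 CPM at ZT1 and 10.3, 5.59 and 9.06 CPM at ZT21. At ZT5 it had 6.30, 5.31 and 3.63 CPM. At ZT9 it had 0.766, 0 and 0 CPM and at ZT13 0.533, 0 and 0.575 CPM, and a count of 0 in these 3 libraries allows up to 0.635, 0.530 and 0.289 CPM (3 counts, counting error only). The 2 libraries at ZT17 had 2.27 and 1.22 CPM. All libraries at ZT1, ZT5 and ZT21 were thus above all libraries at ZT9, ZT13 and ZT17. Among neighbours in the order of means, ZT1, ZT21 and ZT5 overlapped, as did ZT13 and ZT9, while ZT5 lay above ZT17 and ZT17 above ZT13 without overlap.

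The fitted 24 h curve of Arntl in BAT had a peak-to-trough difference of 4.92 ± 0.54 (SE, log2, n = 17) at ZT0.0548 ± 0.37 h, with an edgeR quasi-likelihood adjusted p of 1.31e-04. This was the p of rank 14 among 12394 genes. Arntl fell from ZT1 to ZT13 by 4.59 ± 0.62 on the log2 scale (edgeR adjusted p = 0.00105), where 3.14% of all genes were called. The trough rests on 7 counts summed over the ZT9 libraries and 11 over the ZT13 libraries.

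Clock, the histone acetyltransferase partner of BMAL1, moved with Arntl in BAT but over a smaller range. Clock (ENSMUSG00000029238, chromosome 5) had levels of 22.3, 21.3 and 19.6 CPM at ZT1, 22.1, 24.2 and 18.9 at ZT5, and 20.2, 20.9 and 25.0 at ZT21. Its levels were 11.7, 9.94 and 10.1 CPM at ZT9, 11.5, 10.4 and 8.63 at ZT13, and 15.0 and 15.9 at ZT17. The 9 libraries from ZT21 to ZT5 all lay above those at ZT17, which lay above all 6 at ZT9 and ZT13. The fitted difference was 1.27 ± 0.16 (log2) at ZT0.177 ± 0.51 h (edgeR adjusted p = 5.15e-04), and the fall from ZT1 to ZT13 was -1.06 ± 0.15 (edgeR adjusted p = 0.00188).

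Npas2, the stand-in for CLOCK that binds the same partner, was barely detected in BAT. Npas2 (ENSMUSG00000026077, chromosome 1) had a level of 0.562, 0.460 and 0.607 CPM at ZT1, 1.15, 0 and 0.535 at ZT5, and 0.505, 0.175 and 0.511 at ZT21. It had 0, 0.423 and 0 CPM at ZT9, 0, 0.0962 and 0 at ZT13, and 0 in both libraries at ZT17. Of its 93 counts in BAT, 90 fell in the 9 libraries of ZT21, ZT1 and ZT5. Npas2 did not pass the filter on low counts in BAT, so 2 of 3 members were tested there and 2 were called, against 9.17% of all genes tested. Without that filter its fitted difference in BAT was 4.22 (log2) at ZT1.83, with an edgeR adjusted p of 0.00993. When 1 of the ZT17 libraries was left out, Npas2 passed the filter and the difference was 3.89 (without replicate 1) or 3.88 (without replicate 2). Neither was called. The filter asks for as many libraries above its cutoff as the smallest time holds, which was then 1. Npas2 thus entered through its highest library, at ZT5 (1.15 CPM), where it is high, and these values are a description.

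**Figure D1:**
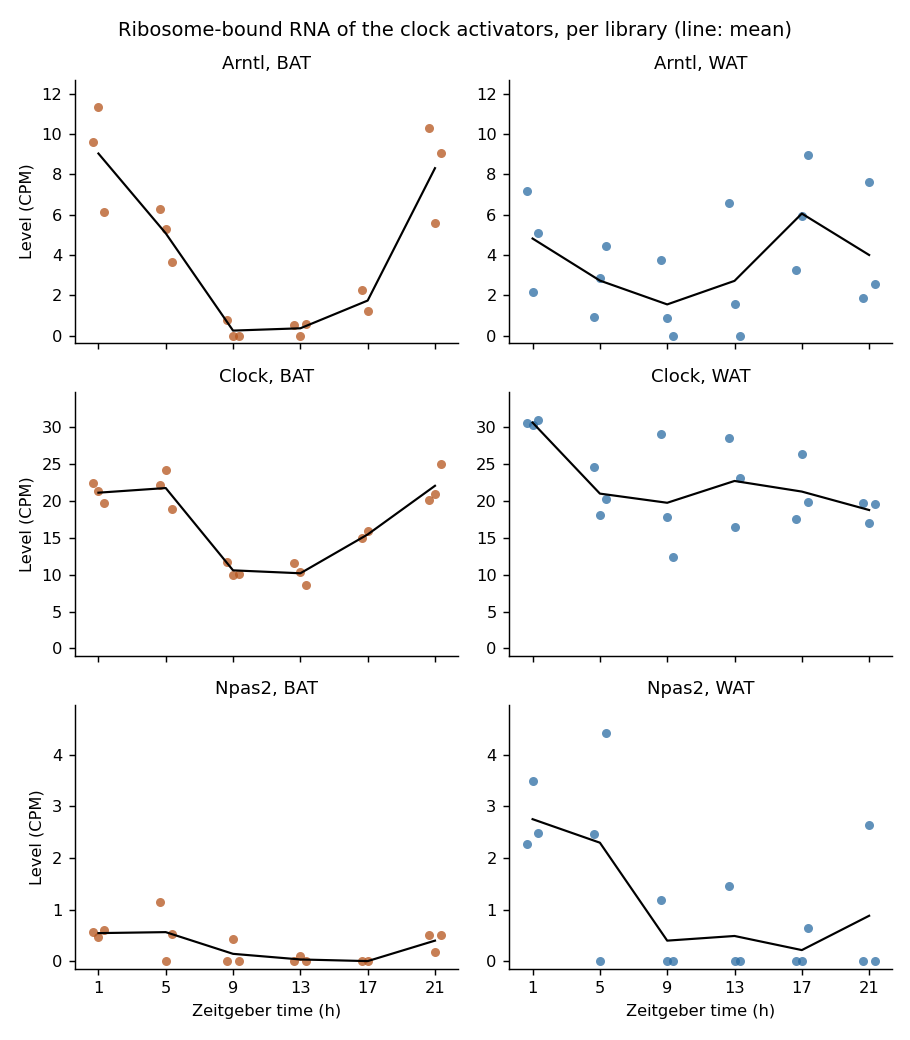
Level in CPM (vertical axis) of Arntl, Clock and Npas2 at each Zeitgeber time in h (horizontal axis), with BAT on the left and WAT on the right. Each point is 1 library and each line joins the means. In BAT the Arntl and Clock points of ZT9 and ZT13 lie below all points of ZT21, ZT1 and ZT5, whereas in WAT the Arntl points of most times overlap.

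In WAT the same 3 genes gave no called rhythm. All 3 passed the filter there, 0 were called, and 9.9% of the 12703 genes tested were called. At an unadjusted p under 0.05, 1 of the 3 passed (Npas2), as did 3422 of the 12703 genes. Npas2 entered the test through ZT1, where it is high, and 9 of its 18 libraries had no count, so its place in these tallies is a description. Limma-voom called none of the 3, DESeq2 called neither Arntl nor Clock, and for Npas2 DESeq2 gave no adjusted p.

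Arntl in WAT had levels of 7.2, 2.15 and 5.12 CPM at ZT1, 0.921, 2.85 and 4.43 at ZT5, and 3.77, 0.892 and 0 at ZT9. It had 6.58, 1.59 and 0 CPM at ZT13, 3.26, 5.95 and 8.98 at ZT17, and 1.85, 7.62 and 2.55 at ZT21. Each time overlapped its neighbour in the order of means, which ran from 6.06 CPM at ZT17 to 1.55 CPM at ZT9. Its 24 h curve had a difference of 1.60 ± 0.89 (log2, n = 18) at ZT20.7 ± 2.1 h (edgeR adjusted p = 0.439). These values rest on 280 Arntl counts over the 18 WAT libraries, against 1236 in BAT.

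Clock in WAT stood highest at ZT1, with levels of 30.6, 30.2 and 31.0 CPM. Its levels at the other times were 24.6, 18.1 and 20.3 CPM at ZT5, 29, 17.8 and 12.4 at ZT9, 28.5, 16.5 and 23.0 at ZT13, 17.5, 26.3 and 19.9 at ZT17, and 19.7, 17 and 19.5 at ZT21. The 3 libraries of ZT1 lay above every other WAT library, and the other 5 times overlapped. The fit gave 0.34 ± 0.29 (log2, edgeR adjusted p = 0.698). Of the 3 libraries with over 50% ribosomal RNA loci, that of ZT9 was the lowest of its time, that of ZT5 the middle and that of ZT17 the highest.

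Npas2 in WAT was detected in all 3 libraries of ZT1, at levels of 2.27, 3.49 and 2.49 CPM, and in 2 of 3 at ZT5, at 2.46, 0 and 4.43 CPM. It had 1.19, 0 and 0 CPM at ZT9, 1.46, 0 and 0 at ZT13, 0, 0 and 0.641 at ZT17, and 0, 2.64 and 0 at ZT21. A count of 0 in these libraries allows from 0.476 to 1.85 CPM, which overlaps the detected values. The fitted difference was 3.94 ± 1.41 (log2) at ZT2.30 ± 1.29 h (edgeR adjusted p = 0.147). Npas2 passed the filter in WAT through ZT1, where it is high.

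Between ZT1 and ZT13 in WAT, Arntl changed by -1.04 ± 1.09, Clock by -0.50 ± 0.35 and Npas2 by -3.18 ± 1.92 on the log2 scale. None of the 3 was called (edgeR adjusted p = 0.863, 0.730 and 0.625), and the comparison called 0.394% of all genes.

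The test of the difference between the depots' curves called Arntl and not the other two. The amplitude of the difference between the BAT and WAT curves was 2.14 ± 0.52 (log2, n = 35) for Arntl, with an edgeR adjusted p of 0.0247, where 9.81% of 13429 genes were called. With limma-voom it was 1.76 and did not pass (adjusted p = 0.0553). For Clock the amplitude was 0.48 ± 0.16 (edgeR adjusted p = 0.103), and for Npas2 it was 0.21 ± 0.62 (edgeR adjusted p = 0.968). The Clock difference passed with DESeq2 (adjusted p = 0.0368) and without the 3 WAT libraries rich in ribosomal RNA loci (edgeR adjusted p = 0.0212), or without WAT ZT9 replicate 3 alone (edgeR adjusted p = 0.0295). The part of depth and of ribosomal RNA loci in these depot differences was not tested.

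Averaged over the day, Clock had a lower level in BAT than in WAT. Mean levels of Arntl were 4.27 ± 4.01 CPM (SD, n = 17) in BAT and 3.65 ± 2.73 CPM (SD, n = 18) in WAT. Those of Clock were 16.9 ± 5.6 and 22.3 ± 5.7 CPM, and those of Npas2 0.296 ± 0.331 and 1.17 ± 1.45 CPM. With time as a factor, the BAT minus WAT difference was -0.46 ± 0.13 (log2, edgeR adjusted p = 0.00212) for Clock. For Npas2 the fitted value was -1.97 ± 0.61, given as a description, since Npas2 passed the filter in WAT and not in BAT and so was fitted only through the depot where it is high. With no filter, where every gene with a count was fitted, it was -1.90 (edgeR adjusted p = 0.00171). For Arntl it was -0.29 ± 0.45 (edgeR adjusted p = 0.561) and its sign turned with limma-voom (0.21, adjusted p = 0.611). Calls were made for 76.5% of all genes in this comparison, so a call here is the usual outcome. The Clock call was lost with no filter (edgeR adjusted p = 0.0509). The markers of fibroblasts, macrophages and lymphocytes given above moved in the same direction as Clock, and their part in the difference was not tested.

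By the authors' deposited levels per length, the order of Arntl and Clock turned over within the day in BAT. On a per-length scale, the authors' deposited TPM (transcripts scaled to a common total), Arntl was above Clock in 3 of 3 BAT libraries at ZT1, 2 of 3 at ZT21, 1 of 3 at ZT5 and 0 of 8 from ZT9 to ZT17. At ZT1 the mean levels were 3.40 ± 1.04 TPM for Arntl and 2.16 ± 0.10 TPM for Clock (SD, n = 3), and at ZT13 they were 0.0967 ± 0.0839 and 0.713 ± 0.196 TPM. In WAT Arntl was below Clock in all 18 libraries, with means over the day of 1.32 ± 0.97 and 5.2 ± 2.87 TPM (SD). Npas2 is in neither TPM table. By counts, with no correction for length, Arntl was below Clock in every BAT library (log2 ratio at most -0.907). The relation of Clock TPM to Clock CPM differed between the depots, as given below, and its part in this order was not tested.

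The ratio of Arntl to Clock counts within a library had a 24 h rhythm in BAT. The log2 ratio of counts plus 0.5 had a fitted peak-to-trough difference of 4.86 at ZT23.5 and an R-squared of 0.728, with a one-sided permutation p of 7.0e-05 and an adjusted p of 0.00042 over 6 ratio tests. In WAT the difference was 2.05 at ZT21.2 (permutation p = 0.123, adjusted p = 0.123). The deposited TPM in place of counts gave 2.10 in WAT (permutation adjusted p = 0.0327). Over the whole day the log2 ratio of Arntl to Clock differed by -0.07 between BAT and WAT from counts (two-sided permutation p = 0.875). From TPM the difference was 1.33 (permutation adjusted p = 0.00033). Counts summed over each depot, an alternative chosen after seeing the data, gave 0.89. The depot difference in this ratio thus changed with the unit and with how libraries were combined. For Clock the mean level was 1.48 TPM in BAT and 5.2 TPM in WAT, against 16.9 and 22.3 CPM.

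Summed over the day, Npas2 had far fewer RNA counts than Clock in both depots, and no protein was measured. Summed over libraries, there were 2.19 Npas2 counts per 100 Clock counts in BAT and 5.45 in WAT, with no correction for length. The share varied by time: in WAT the mean log2 ratio of counts plus 0.5 ran from -6.54 at ZT17 to -3.47 at ZT1. It reached -2.12 in 1 library of ZT5. Weighting times equally, the log2 ratio of Npas2 to Clock differed by -1.19 (BAT minus WAT, two-sided permutation p = 0.0317, adjusted p = 0.0952 over 3 ratio tests), which did not pass. With 5 counts added in place of 0.5 the difference was -1.18 with a permutation adjusted p of 0.0003. Npas2 had 93 counts over 17 BAT libraries and 97 over 18 WAT libraries, so 5 added counts weigh heavily beside its own. Clock had 4245 counts in BAT and 1780 in WAT. Ratios of Npas2 with 5 added thus depend on depth and on the other gene's counts, and their sizes and calls are a description. The log2 ratio of Npas2 to Arntl differed by -1.11 with either number added, and passed with 5 (permutation adjusted p = 0.158 and 0.00392). None of the 4 daily rhythms of ratios with Npas2 passed (permutation adjusted p = 0.0837 in each). With 5 counts added both BAT rhythms passed (permutation adjusted p = 0.0206 for Npas2 to Clock, whose peak moved from ZT2.56 to ZT8.65, and 3e-05 for Npas2 to Arntl). Each passed when replicate 2 of ZT5, which has no Npas2 count, was left out in that depot (permutation adjusted p from 0.0155 to 0.0392).

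**Figure D2:**
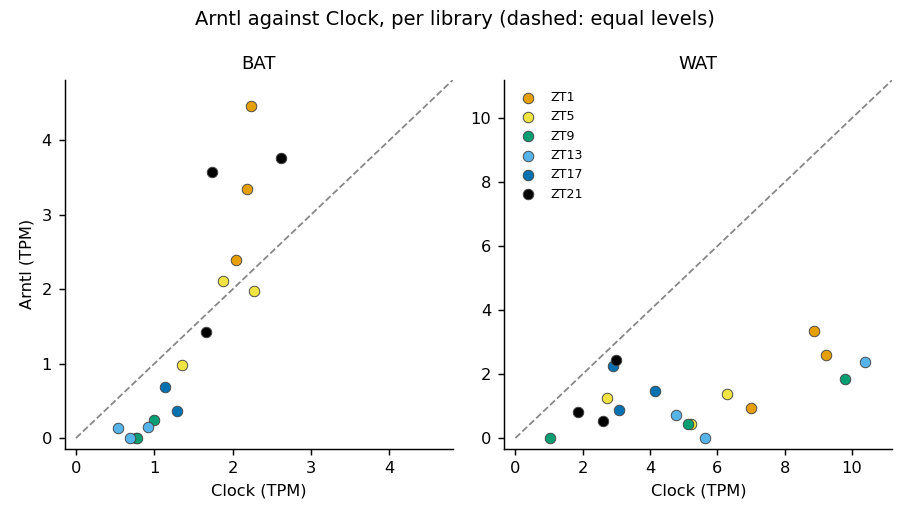
Arntl (vertical axis, TPM) against Clock (horizontal axis, TPM) in each library, with BAT on the left and WAT on the right on different scales. Colours mark the Zeitgeber time and the dashed line marks equal levels. In BAT 6 of 17 libraries lie above the line, and in WAT 0 of 18 do.

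The genes whose log2 levels followed the members most closely across libraries are given by Pearson's r, as a description over libraries that share depot, depth and time of day. For Arntl over the 17 BAT libraries these were Dhx9, an RNA helicase (r = 0.944), Glrx, a glutaredoxin (0.918), Clock itself (0.918), Dhrs3, a retinal reductase (0.912) and Gm15459 (0.910). The most opposite genes were Tef, a PAR bZIP factor and E-box target (r = -0.921), the histone demethylase Kdm7a (-0.891) and Gpd2, the mitochondrial glycerol-3-phosphate dehydrogenase (-0.888). For Clock in BAT they were Xrcc3 (r = 0.955), Zfp207 (0.943), Mettl16 (0.935), Zfyve21 (0.923) and Mif4gd (0.920), and the opposite ones were Tef (-0.930), Ttc7 (-0.924) and the NF-kB inhibitor Nfkbia (-0.911). For Npas2 in BAT, where most libraries hold few counts, r reached 0.819 (Abhd14a) and -0.799 (Gorasp2), and Rora was among the 3 most opposite genes (-0.778).

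Likeness was weaker in the 18 WAT libraries. The nearest genes to Arntl were Rnaseh2c (r = 0.758), Plbd1 (0.737), Irf4 (0.729), Kidins220 (0.723) and Noct, the rhythmic phosphatase nocturnin (0.703), and the most opposite were Inf2 (-0.651), Zfp639 (-0.626) and Nudt19 (-0.601). The nearest to Clock were Syn3 (0.866), Ece1 (0.821) and the endothelial junction gene Cldn5 (0.808), and the nearest to Npas2 was Smad3 (0.752). Between members, Arntl and Clock had r = 0.918 in BAT and 0.431 in WAT, Arntl and Npas2 0.537 and 0.452, and Clock and Npas2 0.576 and 0.548. No gene was among the 5 nearest to a member in both depots.

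Most of the activators' known targets cycled in BAT. Of the period and cryptochrome repressors 5 of 6 were called, of the REV-ERB and ROR genes 3 of 4 tested, of the PAR bZIP factors 4 of 4 and of the DEC repressors 1 of 2 (Bhlhe41). Among all genes tested in BAT 9.17% were called. Tef (peak-to-trough difference 1.63 ± 0.14, log2) peaked at ZT11.7, Dbp (3.35 ± 0.33) at ZT10.2 and Per3 (1.51 ± 0.14) at ZT13.4 (edgeR adjusted p = 1.37e-05, 4.15e-05 and 4.15e-05). The deubiquitinase Usp2 (2.08 ± 0.21) peaked at ZT13.7 and the repressor Nr1d2 (2.03 ± 0.20) at ZT9.51 (edgeR adjusted p = 4.31e-05 for each). Cry1, a repressor with delayed expression, peaked at ZT22.7 with 1.34 ± 0.23 (edgeR adjusted p = 0.00622), and Nfil3, a repressor of D-box genes, at ZT19.8 with 1.66 (edgeR adjusted p = 8.3e-04).

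In WAT fewer of these genes were called: 0 of 5 period and cryptochrome genes tested, 2 of 4 REV-ERB and ROR genes, 2 of 4 PAR bZIP factors and 1 of 2 DEC genes. Among all genes tested in WAT 9.9% were called, and with 5 tested, 0 called is near that share. Dbp was called with 3.24 ± 0.33 at ZT10.6 (edgeR adjusted p = 2.75e-05), and the difference between its depots' curves was 0.17 ± 0.22 (edgeR adjusted p = 0.849). Usp2 (2.85 ± 0.55), Nr1d1 (1.46 ± 0.36), Bhlhe40 (2.07 ± 0.53), Tef (1.3 ± 0.34) and Nr1d2 (1.75 ± 0.46) were called as well, with peaks from ZT8.61 to ZT16.5 (edgeR adjusted p from 0.00762 to 0.0408). Of the 37 clock-list genes tested outside the activators, 7 were called in WAT with all libraries. Leaving out a single library changed that count to 2 (without ZT9 replicate 2, ZT17 replicate 1, ZT21 replicate 1 or ZT21 replicate 3), 3 (ZT1 replicate 1, ZT9 replicate 1 or ZT17 replicate 3) or 4 (ZT1 replicate 3, ZT5 replicate 2 or ZT13 replicate 3). The depots' curves were called different for 1 gene of the lists besides Arntl, the bHLH-PAS factor Epas1 (0.82 ± 0.22, edgeR adjusted p = 0.0408). Among all genes 9.81% were called in that comparison.

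Of the bHLH-PAS relatives of the members, 0 of 5 tested were called in each depot, against 9.17% (BAT) and 9.9% (WAT) of all genes. With 5 tested, 0 called is near that share. In BAT 5 of 13 passed the filter, and their authors' deposited mean levels were 10.7 ± 3.2 TPM for Epas1, 2.83 ± 0.50 for Hif1a, 2.16 ± 0.59 for Arnt, 0.482 ± 0.163 for the Arntl paralogue Arntl2 and 0.132 ± 0.058 for Sim2 (SD, n = 17). In WAT the 5 that passed were Epas1 (23.4 ± 14.3 TPM), Arnt (5.65 ± 2.47), Hif1a (4.69 ± 1.78), Ahr (0.659 ± 0.585) and Arntl2, which is not in that TPM table (SD, n = 18). Arntl2, whose protein can pair with CLOCK in place of BMAL1, was in BAT below the ZT21 to ZT5 means of Arntl and above its ZT9 and ZT13 means on the TPM scale. The shares of other lists were near the 9.17% (BAT) and 9.9% (WAT) of all genes called. Of the coactivators and other partners listed, 1 of 10 was called in BAT (Kmt2a, a histone methyltransferase) and 1 of 10 in WAT (Nampt, an enzyme of NAD synthesis). Of the kinases and ligases tested, 1 of 7 was called in each depot, Usp2.

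Accessibility rhythms were called at Arntl and Npas2 in both depots, and at Clock in neither. In BAT 3 of 11 member peaks had a called 24 h rhythm, against 18.9% of all BAT peaks, and in WAT 4 of 6, against 15.8% of all WAT peaks. The BAT count is near its share, as is 0 of 2 for Clock in each depot. In the authors' deposited tables, the JTK_CYCLE q-value was under 0.05 for the same 3 and 4 peaks. That test used the same libraries, and its q-value was under 0.05 for 9.1% of all BAT peaks and 8.59% of all WAT peaks. Values below are ATAC tags in CPM of tags in peaks, scaled within each depot, and peaks are named by their distance to the nearest start site in bases.

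The Arntl promoter was open at all times in BAT. The BAT peak at -87 (chr7:113207303-113207453, mm10) lies inside the upstream sequence printed above. It had 61.7, 55.1 and 50.2 CPM at ZT1, 53.6, 48.2 and 42.1 at ZT5, 50.6, 43.7 and 53.6 at ZT9, 46.9, 52.5 and 49.0 at ZT13, 47.8, 48.8 and 51.2 at ZT17, and 49.2, 58.7 and 50.8 at ZT21. All times overlapped, and the fitted difference was 0.15 ± 0.08 (log2, n = 18, edgeR adjusted p = 0.330), while Arntl RNA in the same depot had a difference of 4.92. The BAT peak does not reach element 1 or element 2.

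In WAT the corresponding promoter peak, at -24 (chr7:113207366-113207516), covers 25 bases of the stretch with element 1. It had 60.2, 66.1 and 57.3 CPM at ZT1, 55.9, 50.7 and 60.5 at ZT5, 49.1, 59.5 and 42.9 at ZT9, 59.3, 61.1 and 52.5 at ZT13, 60.4, 65.5 and 62.0 at ZT17, and 60.9, 70.8 and 71.1 at ZT21. All libraries of ZT17 and ZT21 lay above those of ZT9, and those of ZT21 also above those of ZT5. Its 24 h curve had a difference of 0.34 ± 0.09 (log2) at ZT20.3 ± 1.0 h (edgeR adjusted p = 0.0233). The call was lost with time as a factor (edgeR adjusted p = 0.117) and without each of WAT ZT9 replicate 1, ZT9 replicate 3, ZT21 replicate 2 and ZT21 replicate 3 (edgeR adjusted p = 0.0595, 0.0561, 0.0790 and 0.0504).

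A region 5.7 kb upstream of Arntl was called in WAT and not in BAT. In WAT the peak at -5691 (chr7:113201699-113201849, intergenic) had 26.4, 33.9 and 26.1 CPM at ZT1, 24.8, 23.9 and 25.2 at ZT5, 27.6, 27.9 and 25.3 at ZT9, 30.8, 36.8 and 31.6 at ZT13, 29.8, 42.2 and 39.2 at ZT17, and 37.4, 37.7 and 39.6 at ZT21. All libraries at ZT21 were above all at ZT1, ZT5, ZT9 and ZT13, and the fitted difference was 0.63 ± 0.12 (log2) at ZT18.0 ± 0.7 h (edgeR adjusted p = 0.00241). In BAT the peak at -5684 had 24.2 to 35.1 CPM and a difference of 0.23 ± 0.09 at ZT20.1 (edgeR adjusted p = 0.144). The tag counts of the depots were fitted apart and the difference between them was not tested.

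Inside the Arntl gene, the strongest peak in both depots was intronic, at +53164 in BAT (chr7:113260554-113260704) and +53163 in WAT. In BAT it had 52 to 69 CPM, rank 1824 of 42572 peaks by mean, and a difference of 0.15 ± 0.06 (log2, edgeR adjusted p = 0.165). In WAT it had 63.8 to 91.2 CPM, rank 1953 of 25050, and a difference of 0.33 ± 0.07 at ZT18.6 ± 0.8 h (edgeR adjusted p = 0.00730), with 82.0, 91.2 and 86.7 CPM at ZT17 against 68.9, 63.8 and 68.8 at ZT9.

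The Arntl peak that cycled in BAT was another intronic one, at +43806 (chr7:113251196-113251346). It had 11.2, 9.72 and 11.9 CPM at ZT1, 10.7, 11.5 and 9.48 at ZT5, 6.94, 7.51 and 6.85 at ZT9, 8.69, 8.69 and 9.34 at ZT13, 11.9, 11.9 and 11 at ZT17, and 14.4, 13.1 and 16.2 at ZT21. The ZT9 libraries were the lowest of all 18 and 3 of ZT21 the highest, without overlap with any other time. The fit gave 0.84 ± 0.13 (log2) at ZT21.5 ± 0.6 h (edgeR adjusted p = 9.70e-04). The neighbouring intronic peak at +35449 fell just short, with 0.42 ± 0.12 at ZT19.8 (edgeR adjusted p = 0.0509), and those at +9006 and +34830 had 0.04 ± 0.16 and 0.37 ± 0.16 (edgeR adjusted p = 0.984 and 0.209).

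Clock has 2 peaks in each depot, all at its promoter, and none was called. With 2 peaks, 0 called is near the share of all peaks (18.9% in BAT and 15.8% in WAT). In BAT the peak at -10 (chr5:76304727-76304877) had 23.1 to 32.5 CPM with a difference of 0.05 ± 0.10 (log2, edgeR adjusted p = 0.905), and the peak at -478 had 25.3 to 32.1 CPM with 0.09 ± 0.08 (edgeR adjusted p = 0.696). In WAT the peak at -13 had 32.8 to 51.3 CPM with 0.12 ± 0.10 (edgeR adjusted p = 0.706), and that at -475 had 27.2 to 44.5 CPM with 0.30 ± 0.12 (edgeR adjusted p = 0.198). Clock RNA in BAT had a difference of 1.27 with these promoter peaks at 0.05 and 0.09.

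The largest accessibility rhythm among the members was upstream of Npas2, the member with the least RNA. In BAT the peak at -1402 (chr1:39192795-39192945, intergenic) had 22.6, 24.2 and 20.7 CPM at ZT1, 13.3, 14.0 and 12.7 at ZT5, 11.2, 11.8 and 9.34 at ZT9, 8.87, 8.20 and 10.9 at ZT13, 8.76, 11.2 and 9.78 at ZT17, and 18.6, 20.4 and 22.8 at ZT21. All libraries at ZT21 and ZT1 lay above all at ZT5, which lay above all at ZT9, ZT13 and ZT17. The fitted difference was 1.35 ± 0.15 (log2) at ZT0.110 ± 0.41 h (edgeR adjusted p = 4.18e-05), the p of rank 48 among 42572 peaks.

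The region cycled in WAT as well. The WAT peak at -1339 (chr1:39192858-39193008) had 31.9, 27.5 and 14.0 CPM at ZT1, 11.7, 14.7 and 15.5 at ZT5, 12.7, 12.2 and 16.5 at ZT9, 15.4, 14.2 and 11.1 at ZT13, 23.2, 26.8 and 22.4 at ZT17, and 28.0, 34.8 and 50.1 at ZT21. All libraries of ZT17 and ZT21 lay above all of ZT5, ZT9 and ZT13, and those of ZT1 were split. Its 24 h curve had a difference of 1.54 ± 0.21 (log2) at ZT21.1 ± 0.5 h (edgeR adjusted p = 1.28e-04), the p of rank 152 among 25050 peaks. Leaving out any library kept the call in both depots. A second Npas2 peak, in an intron at +73604 in BAT (chr1:39267801-39267951), had 18.1, 14.0 and 10.7 CPM at ZT21 against 5.37, 6.08 and 5.90 at ZT17, with 1.23 ± 0.24 at ZT23.6 ± 0.7 h (edgeR adjusted p = 0.00509).

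**Figure D3:**
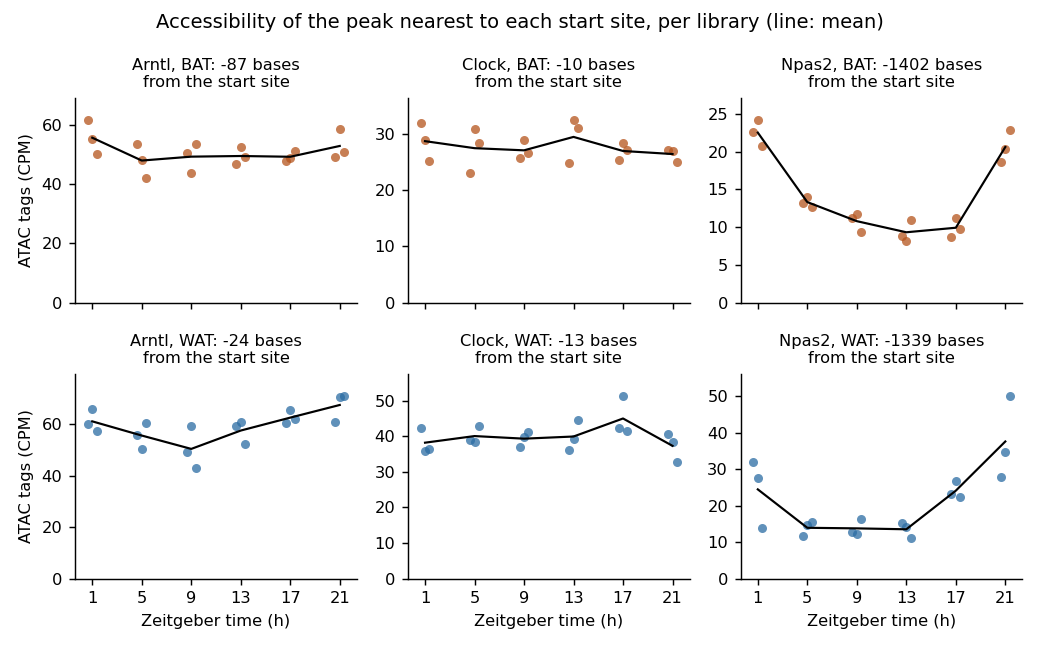
ATAC tags in CPM (vertical axis, from 0, scaled within each depot) at the peak nearest to the start site of Arntl, Clock and Npas2 by Zeitgeber time in h, with BAT above and WAT below. Points are libraries and lines join the means. The Npas2 means are highest at ZT1 in BAT and at ZT21 in WAT, whereas the Clock panels stay within 23.1 to 32.5 CPM in BAT and 32.8 to 51.3 CPM in WAT.

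**Figure D4:**
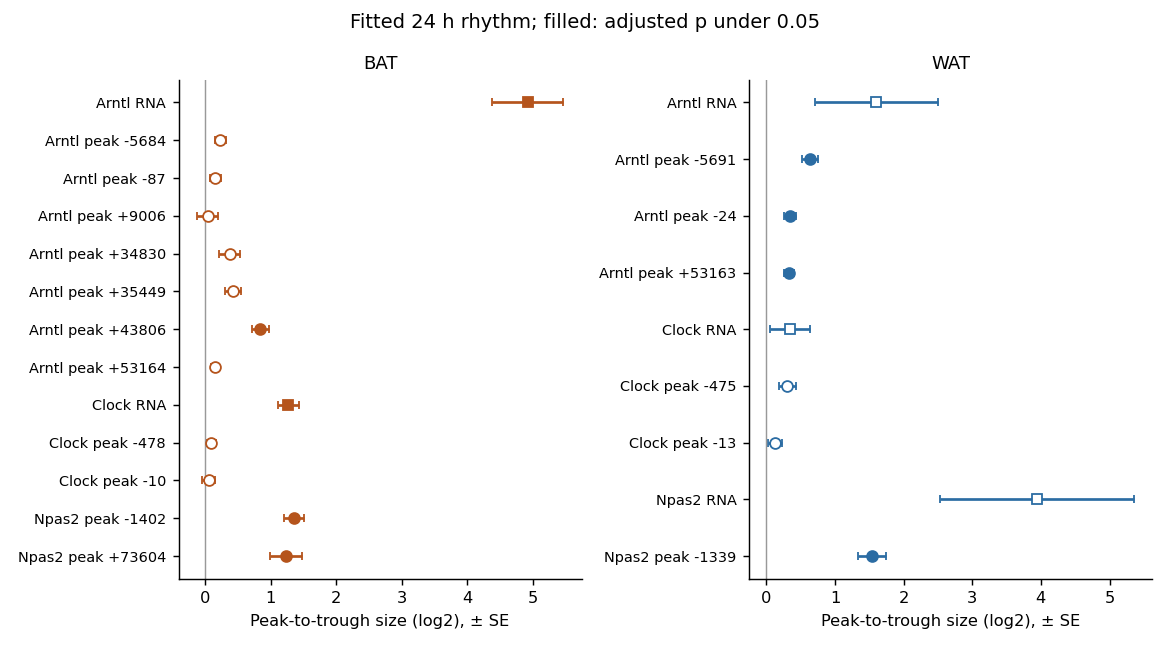
Fitted 24 h peak-to-trough difference (log2, horizontal axis) with its SE for the RNA of each member tested (squares) and for each of its ATAC peaks (circles, named by distance to the start site), with BAT on the left and WAT on the right. Filled symbols had an adjusted p under 0.05. Arntl and Clock RNA and 3 peaks are filled in BAT, and 4 peaks and no RNA in WAT.

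BMAL1 peaks at its own gene had scores near or below the middle of the list. The deposited list, 1 peak set for the ChIP libraries together per the file header, holds 3 peaks named Arntl, 1 named Npas2 and 0 named Clock. The Arntl peak at +179 (chr7:113207538-113207750, 5′ UTR exon) had the authors' score of 6.5, rank 4349 of 10368, and scaled signals of 5.83 and 6.15 tags per 10000000 sequenced in the 2 libraries, which is 17 and 18 tags. It begins inside the stretch that holds element 2. The intronic Arntl peaks at +34549 and +53053 had scores of 4.11 and 4.28, with 14 and 10 tags and 13 and 11 tags. The Npas2 peak at -1386 (chr1:39192780-39192992) also had a score of 4.28, with 15 and 8 tags. The median score of the list was 6.16.

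The targets of the activators stood at the top of the same list. Nr1d1 had the highest score of all, 201.3, and the highest peaks of Tef, Nr1d2, Per1 and Dbp had ranks 2, 3, 4 and 6. All 6 period and cryptochrome genes had a peak among the 500 highest scores (ranks 4 to 16), as did 3 of 5 REV-ERB and ROR genes, 3 of 4 PAR bZIP genes and both DEC genes, and 0 of 3 activators. These 500 are a small share of the 10368 peaks, and 0 of the 4 activator peaks is near that share. Scores are the authors' own per peak and were used only to rank this list.

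The Npas2 BMAL1 peak coincides with the cycling region. It overlaps the WAT ATAC peak at -1339 by 134 bp and the BAT ATAC peak at -1402 over its whole 150 bp, and was the 1 of 4 member peaks to share at least 75 bp with a WAT ATAC peak. The share of all BMAL1 peaks that do so was not computed, so this count is a description. The Npas2 BMAL1 peak is a weak one, of rank 8670 among 10368 by score. The Arntl peak at +53053 shares 71 bp with the strong intronic ATAC peak of WAT, and the peaks at +179 and +34549 share none. The ChIP libraries come from another strain and another time than the ATAC libraries, and binding at one time gives no rhythm.

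**Figure D5:**
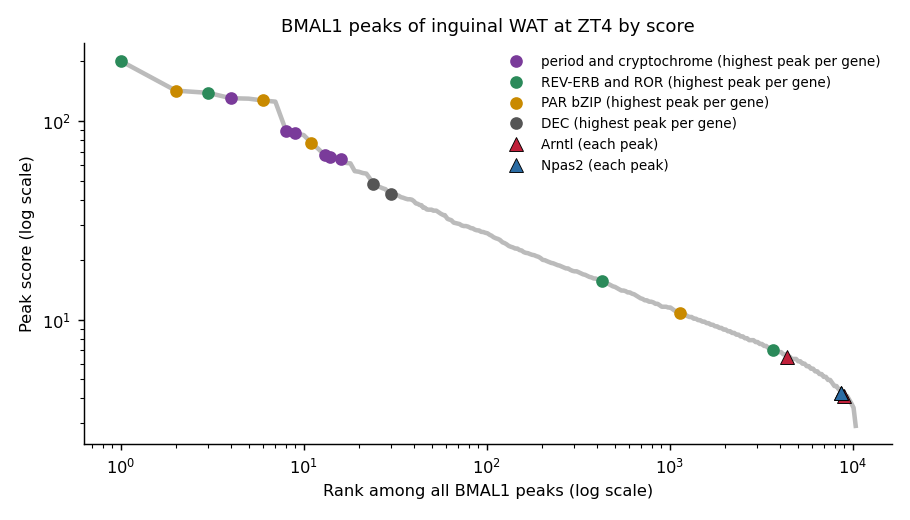
Authors' peak score (vertical axis, log scale) against rank (horizontal axis, log scale) for the 10368 BMAL1 peaks of inguinal WAT at ZT4. The grey line is the whole list, circles are the highest peak of each period, cryptochrome, REV-ERB, ROR, PAR bZIP and DEC gene with a peak, and triangles are all peaks of Arntl and Npas2. The period and cryptochrome genes hold ranks 4 to 16, and the highest Arntl peak has rank 4349.

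In the authors' deposited tables the JTK_CYCLE q-values for RNA were 0.0178 for Clock and 0.0203 for Arntl in BAT, where 4.33% of 14055 genes had a q-value under 0.05. In WAT they were 1 for both genes, where 0.136% of 12541 genes had a q-value under 0.05. Npas2 is in neither table.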

How the data were processed

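RNA, ATAC and BMAL1 ChIP tables of mouse adipose tissue were used as deposited. The RNA table holds the authors' estimated counts (expected counts, unnormalized), rounded here. Tables of the authors' JTK_CYCLE rhythm test give TPM by library, p-values and q-values. TPM values there are missing almost only where the count is 0 (99.8% of missing values in BAT, 99.98% in WAT) and were set to 0. For ATAC, the deposited values are raw tag counts in 150 bp peaks on mm10, per the file headers. In the BMAL1 table the authors' signal is tags scaled to 10000000 per library, with a peak score, per the file headers. HOMER, limma, DESeq2, RSEM 1.3.0, STAR 2.7.5 and Bowtie2 2.4.1 are listed, without roles, by the submitters' processing notes. Use of strand in counting is not stated there. Of the per-sample columns, 1 that matched no listed sample was left out, and the ChIP input was not used here.

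In R 4.3.3, edgeR 4.0.16 (TMM, filterByExpr by time, quasi-likelihood F tests, Benjamini-Hochberg over all features) fitted a cosine and sine of period 24 h per depot, ZT13 against ZT1, depot with time as a factor, and the depot interaction, whose size is an amplitude. A call needed an adjusted p under 0.05. Ratios within a library were tested with 100000 permutations. DESeq2 1.42.0 and limma 3.58.1 (voom) were alternatives. The fits were tested on simulated data. Likeness used genes of at least 5 CPM, and its 5 highest and 3 lowest r were listed. Named are the members, up to 6 clock-list genes of smallest p per depot, and the bHLH-PAS relatives tested; others were chosen after their values were seen. RNA libraries held 1301522 to 46274438 counts and ATAC libraries 1623006 to 12811242 tags in peaks. The members, lists and tests were chosen with earlier results of these data known. Promoters are from RefSeq, GRCm38.p6.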

Additional observations from a re-analysis of the deposited data

Results flagged for a closer look

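The rhythm of Arntl RNA differed between BAT and WAT. Subtracting one depot's curve from the other's left an amplitude of 2.14 ± 0.52 (log2), with an edgeR adjusted p of 0.0247 in the test of the depot interaction over 17 BAT and 18 WAT libraries. In BAT every library at ZT21, ZT1 and ZT5 was above every library at ZT9, ZT13 and ZT17, and in WAT these sets overlapped. Leaving out any 1 library kept the call (edgeR adjusted p from 0.00584 to 0.0448), and limma-voom lost it (1.76, adjusted p = 0.0553).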

How the results depend on the processing

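The calls of Arntl and Clock in BAT RNA, of the Npas2 ATAC peaks and of Arntl +43806, -5691 and +53163 kept their side of the threshold under every alternative run for them. Counts over all features moved more. The BAT rhythm called 1136 genes (2455 with DESeq2, 1754 with no filter, 617 with time as a factor, 460 to 3383 leaving out 1 library). The WAT rhythm called 1257 (2096 with DESeq2, 3046 with no filter, 2689 without the 3 libraries over 50% ribosomal RNA loci, 472 to 2519 leaving out 1). ZT13 against ZT1 called 389 in BAT (1151 with DESeq2, 1810 with no filter, 99 to 1137 leaving out 1) and 50 in WAT (307 with DESeq2, 225 with no filter, 95 with limma-voom, 147 without the 3 libraries, 1 to 133 leaving out 1). The depots' curves differed for 1317 (2636 with DESeq2, 2156 with no filter, 2061 with limma-voom, 3628 without the 3 libraries, 521 to 2949 leaving out 1). BAT ATAC called 8053 peaks, and 14063 with time as a factor. The cause of these shifts was not tested.

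Among members, Npas2 in BAT was fitted with all libraries only when no filter was used (rhythm 4.22, ZT13 minus ZT1 -3.76). With the filter and 1 ZT17 library left out, Npas2 entered through ZT5, where it is high, and lost the call (3.88 to 3.89, and -3.75 in both). The Clock depot level was -0.38 with no filter, and that of Arntl 0.21 with limma-voom. The depot difference in rhythm was 0.50 with DESeq2 and 0.55 without the 3 libraries for Clock (0.42 to 0.55 leaving out 1), and 1.76 with limma-voom for Arntl. Arntl +35449 in BAT had 0.43 with RLE factors and passed (0.36 to 0.48 leaving out 1), and Arntl -24 in WAT 0.37 with time as a factor (0.29 to 0.41 leaving out 1). Within 10 kb of a start site 1 BAT peak was called. Clock genes called in WAT numbered 2 to 8 leaving out 1 library.

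With 5 counts added, ratio differences between depots were -1.18 (Npas2 to Clock) and -1.11 (Npas2 to Arntl), and over the BAT day 1.13 with the peak moved to ZT8.65 and 3.50, all of which then passed. Ratios of Npas2 with 5 added depend on depth, so these calls are a description. The ratio of Arntl to Clock between depots was 1.33 from TPM and 0.89 from summed counts, an alternative chosen after seeing the data, and its WAT rhythm 2.10 from TPM. Leaving out 1 library gave -0.33 to 0.13 for Arntl to Clock, changing sign in 8 of 35 cases, -1.40 to -0.83 for Npas2 to Arntl and -1.44 to -0.96 for Npas2 to Clock. Over the day it gave 2.05 to 3.12 (BAT) and 2.68 to 3.76 (WAT) for Npas2 to Clock, and 2.63 to 4.26 and 2.74 to 4.32 for Npas2 to Arntl. Among the 500 highest of 10368 BMAL1 scores 0 were of members, near that share for 4 peaks, and 2 member peaks met a WAT ATAC peak by at least 1 bp. By CPM the highest mean was at Zeitgeber hour 17 for Arntl in WAT and hour 21 for Clock in BAT, and by TPM at hour 1 for both.

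Deviations of libraries with the same replicate number had a median correlation of 0.0557 in BAT RNA and 0.0249 in WAT RNA. For other numbers the medians were -0.0162 and -0.0172. Same-number pairs ran from -0.46 to 0.348 in BAT RNA and from -0.437 to 0.389 in WAT RNA. These medians cannot show that no samples were paired. The replicate block moved ZT13 against ZT1 in WAT to 128 genes and changed no member call. Npas2 had 93 counts over the BAT libraries and 97 over the WAT libraries, and Arntl 7 and 11 at ZT9 and ZT13 in BAT, and values this low have wide counting error.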
